A study of Mus musculus with 8 samples.

Results

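The Bcl2 family holds the proteins that decide whether a cell permeabilises its outer mitochondrial membrane and dies by apoptosis, and 10 of its genes were followed here in mouse embryos lacking Arid3b. They were chosen by name, as the probes whose gene name on the array is Pmaip1, Bbc3, Bcl2l11, Bid or Bad (BH3-only), Bax or Bak1 (effectors), or Bcl2, Bcl2l1 or Mcl1 (survival genes). All 10 were found, on 19 of the 41174 probes of the array, and all 19 probes passed the filter on dim probes. They are 10 of the 17102 genes tested, out of 27670 gene names on the array.

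RNA came from whole embryos at embryonic day 9.0, pooled by 3 to 4 embryos, with 4 wild-type pools and 4 pools labelled Arid3b null. Arid3b is a transcriptional regulator that binds AT-rich DNA, and the series compares embryos with and without it. Strain, litters, the allele and the age of each embryo beyond the stage are not given in the sources used here. Nothing there says that the pools came from separate litters, so p-values cover only the spread among the pools, which may be partly technical. In a whole embryo, fewer cells of a type and less RNA per cell cannot be told apart.

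In the intrinsic pathway, BH3-only proteins carry the death signal. They bind and neutralise the survival proteins, and some of them also activate Bax and Bak1, which form the pore that lets cytochrome c out. Cytochrome c then assembles the apoptosome and activates caspases. Several BH3-only genes, Pmaip1 (Noxa) and Bbc3 (Puma) above all, are controlled mainly by transcription and are known targets of p53 and of stress-activated factors. Apoptosis shapes the neural tube, limb and branchial region of the embryo around and after this stage.

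Values are log2 processed signals relative to the 75th percentile of each array, and differences are null minus wild type on that scale, with the standard error of a limma fit across all genes. Array signal does not compare levels between genes, so each gene is compared only with itself. A gene is called where its limma p, adjusted over all genes by the Benjamini-Hochberg method, is under 0.05. On each array 60.1% to 64.1% of probes gave signals well above background. The 75th percentile of signal ran from 1280 to 1703 and was lowest in the pools numbered 2 of both groups. Arid3b was lower in the null pools on its 3 probes, at 30.2% to 39.2% of the wild-type mean. Null pool 4 kept the most Arid3b signal on each probe, at 1.03, 2.48 and 1.14. The other null pools were at 0.22 to 0.49, 1.83 to 1.89 and 0.31 to 0.46. Why null pool 4 differed was not tested. Pools 1 and 2 of each group lay on slide 1 and pools 3 and 4 on slide 2, and wild-type pools were always in positions 1 and 2 of a slide, so position and genotype cannot be told apart. Same-numbered pools deviated from their group means together (correlations of 0.43 to 0.64 over genes) and were taken as pairs. The labels do not say what the number marks, so the pairing was inferred from these same values. Wild-type pool 4 correlated slightly better with null pool 3 (0.496) than with null pool 4 (0.426). For the members and the pathway lists below, the replicate block (a fit with 1 term per pair) is quoted wherever it alters a call. It is not given for the cell type markers or for the genes most like Pmaip1. Markers of neural, cardiac, endothelial, paraxial mesodermal and primitive erythroid cells were measured in all pools. Above background on at least 4 arrays were 0 of 3 markers of maternal decidua and 1 of 4 of macrophages and leukocytes. With genotype alone, 0 markers in these lists, or in those of yolk sac endoderm and trophoblast, were called. Median differences were -0.19 for neural, 0.22 for cardiac, 0.21 for endothelial, -0.12 for paraxial mesodermal and -0.22 for primitive erythroid markers. They were 0.14 for yolk sac endoderm and 0.31 for trophoblast, and the 1 leukocyte marker differed by -0.52. For trophoblast, 3 of 5 markers were tested, and the median is the difference of 1 of them, with an SE of 0.47. Whether the mix of cells differed between the groups was not tested. The mean level of 4 Y-linked genes was -8.18, -1.51, -3.10 and -7.77 in wild-type pools 1 to 4 and -2.22, -1.45, -2.34 and -1.25 in null pools 1 to 4, so the null pools held more male signal.

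The array reads each gene through 60-base oligonucleotides, and those below lie in coding sequence of the family's death and survival arms. They are shown because they show what the array reads in these genes, and because in Bcl2l11 and Bak1 the probe runs over a conserved motif of the family. Capitals mark the glycine and aspartate codons at the core of the BH3 helix in Bcl2l11 and the tryptophan, glycine and arginine codons of the BH1 groove motif in Bak1. All positions are those of the files, on mouse build mm7.

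Bcl2l11, chr2:127888010-127899105, plus strand: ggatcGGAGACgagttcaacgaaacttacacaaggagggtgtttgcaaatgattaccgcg

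Bax, chr7:41641827-41641982, minus strand: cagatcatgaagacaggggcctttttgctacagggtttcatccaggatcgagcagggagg

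Bak1, chr17:25205887-25205946, minus strand: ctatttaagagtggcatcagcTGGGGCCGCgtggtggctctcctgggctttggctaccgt

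Bcl2, chr1:106612249-106612308, minus strand: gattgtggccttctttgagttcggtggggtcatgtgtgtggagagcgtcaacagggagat

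Bcl2l1, chr2:152570306-152570365, minus strand: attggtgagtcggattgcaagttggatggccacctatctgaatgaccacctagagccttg

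The Bcl2l11 probe spans 11096 genomic bases and the Bax probe 156, so both bridge an intron and read spliced RNA. The Bax probe is its gene's only probe, printed on 10 spots per array, and the other 4 sequences above belong to probes dimmer than the one that stands for the gene. No sequence is shown for Pmaip1, the gene with the largest difference.

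One of the 10 members, Pmaip1, rose in the null embryos, and 0 fell, at limma adjusted p. Over all genes, 4.2% were called, 2.85% as higher and 1.35% as lower in null pools, so the members' share is not far from that of the array. Bbc3 had the next largest difference and passed only with the pairs as a block. On the brightest probe of each gene, the other 8 members had lower means in the null pools by 0.03 to 0.18, and none of them passed. The median difference over the members was -0.05, against -0.01 over all genes tested.

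**Figure D1:**
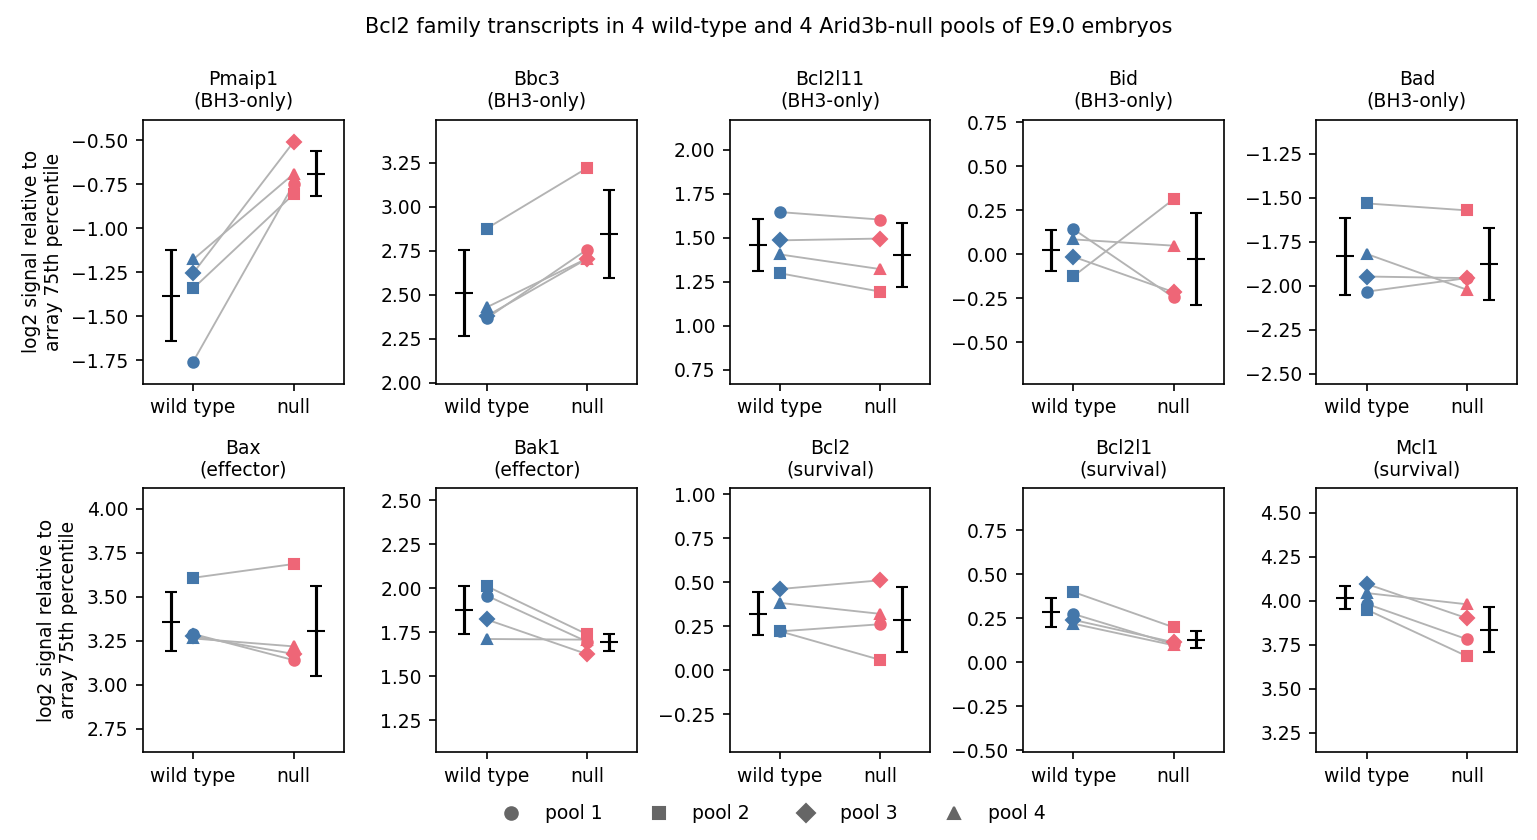
Log2 signal relative to the array's 75th percentile for each of the 10 members in 4 wild-type (blue) and 4 Arid3b-null (red) pools, with same-numbered pools joined by grey lines and symbols by pool number; black bars are mean ± SD (n = 4), and each panel spans the same height in log2 units. Pmaip1 is higher in every null pool than in every wild-type pool, Bbc3 shifts up in all 4 pairs with pool 2 high in both groups, and Bcl2l1 is lower in every null pool.

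Among the BH3-only genes, Pmaip1 encodes Noxa, which binds chiefly Mcl1 and promotes its degradation. Its signal in wild-type pools 1 to 4 was -1.76, -1.34, -1.26 and -1.18, and in null pools 1 to 4 it was -0.75, -0.81, -0.51 and -0.69. Every null pool lay above every wild-type pool, and wild-type pool 1 was the lowest of all. The mean rose from -1.38 ± 0.26 to -0.69 ± 0.13 (SD, n = 4 each). The difference was 0.69 ± 0.14 (SE), or 1.62-fold with a 95% interval of 1.30 to 2.01, at a limma adjusted p of 0.0363. By p it ranked 434 among all genes. Null pools all above wild-type pools were found for 8.08% of genes, and groups without overlap in either direction for 16.1%.

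The rise of Pmaip1 was of like size on both slides, at 0.77 on slide 1 and 0.62 on slide 2, and in same-numbered pairs 1 to 4 it was 1.01, 0.54, 0.75 and 0.49. With slide as a block the limma adjusted p was 0.0161, and with the replicate block it was 0.0244. Leaving out any 1 of the 8 pools kept the difference between 0.57 and 0.76 but ended the call each time, at limma adjusted p of 0.0576 to 0.105, and normexp background correction gave 0.52 with 0.996. With the Y-linked level as a covariate the difference was 0.61 with a limma adjusted p of 0.241. Over all genes, 718 were called with genotype alone, 93 to 628 without 1 pool, 0 with normexp and 9 with the Y-linked covariate.

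Bbc3 encodes Puma, which binds all of the main survival proteins and is induced by p53. Its signal in wild-type pools 1 to 4 was 2.37, 2.88, 2.38 and 2.43, and in null pools 1 to 4 it was 2.76, 3.22, 2.70 and 2.71. Pool 2 was the highest in both groups by about the same step, and wild-type pool 2 lay above 3 of the null pools, so the groups overlap. The difference was 0.33 ± 0.16 (SE), or 1.26-fold with a 95% interval of 0.98 to 1.63, at a limma adjusted p of 0.290. Within pairs 1 to 4 it was 0.39, 0.34, 0.33 and 0.28, and all 4 pairs went up, as they did in 22.5% of genes. With the replicate block the same difference had a standard error of 0.05 and a limma adjusted p of 0.0244, in a fit that called 13.7% of genes, 7.78% as higher. With that block and any 1 pair left out, an alternative chosen after the data were seen, the difference stayed between 0.32 and 0.35 while the limma adjusted p was 0.0536 to 0.0993. With the Y-linked level as a covariate, a fit that called 9 of all genes, it was 0.15, with a limma adjusted p of 0.812. Without null pool 2 it was 0.21.

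Bcl2l11 encodes Bim, a BH3-only protein controlled by FoxO factors and by ERK phosphorylation. Its brightest probe gave 1.65, 1.30, 1.49 and 1.40 in wild-type pools 1 to 4 and 1.60, 1.19, 1.495 and 1.32 in null pools 1 to 4. Same-numbered pools were nearly equal, with pool 1 highest and pool 2 lowest in both groups. The difference was -0.06 ± 0.12 (SE), and its interval allows a fold between 0.80 and 1.16.

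Bid, which caspase-8 cleaves to link death receptors to mitochondria, gave 0.14, -0.13, -0.01 and 0.08 in wild-type pools and -0.25, 0.31, -0.22 and 0.05 in null pools. Null pool 2 was the highest and null pool 1 the lowest, and wild-type pools lay between them. The difference was -0.05 ± 0.14 (SE), with a fold interval of 0.78 to 1.20. Its pairs 1 to 4 differed by -0.39, 0.44, -0.20 and -0.04, the widest spread between pairs among the members (SD 0.35).

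Bad, a sensitiser held inactive by Akt phosphorylation, gave -2.03, -1.53, -1.95 and -1.82 in wild-type pools and -1.96, -1.57, -1.96 and -2.02 in null pools on its brighter probe. Pool 2 was the highest in both groups. The difference was -0.04 ± 0.14 (SE), with a fold interval of 0.77 to 1.22. The files place this probe on the minus strand, and the other Bad probe, about 9 kb away, on the plus strand like the RefSeq gene, so whether the brighter probe reads Bad RNA is not settled here. On the plus-strand probe Bad differed by -0.41 ± 0.13 (SE), a fold of 0.75, with a limma adjusted p over all probes of 0.123. Counts and ranges over the members use the brighter probe.

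**Figure D2:**
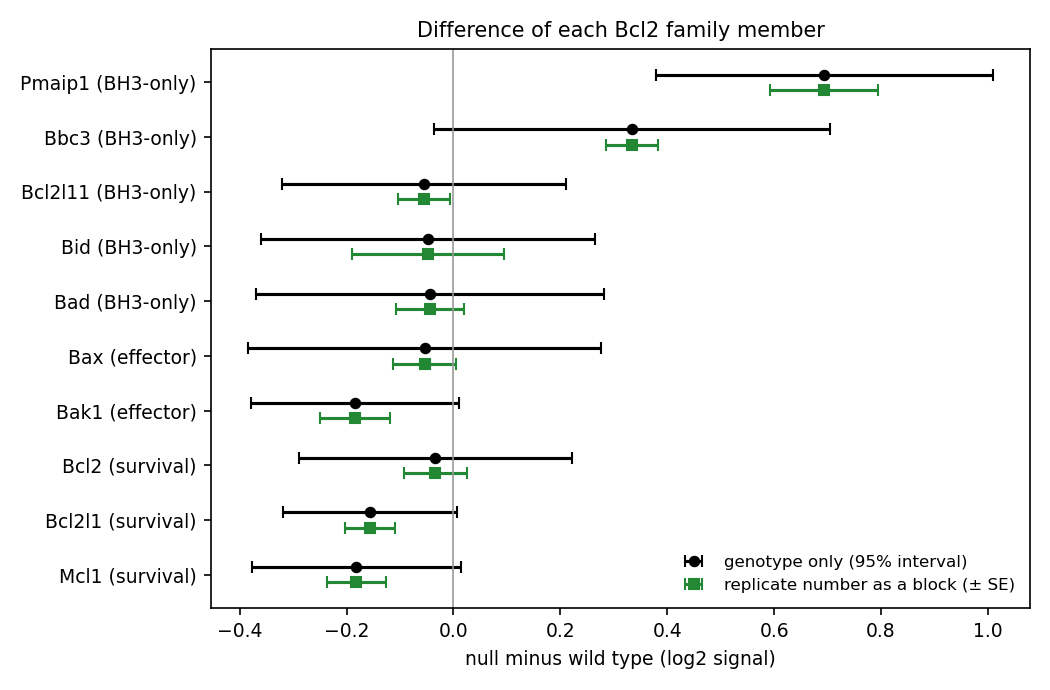
Null minus wild type in log2 units for each member, from the fit with genotype alone (black circles, 95% interval) and from the fit with the replicate number as a block (green squares, ± SE). The interval of Pmaip1 lies above 0, those of Bbc3, Bak1, Bcl2l1 and Mcl1 reach just past 0, and the block narrows the error of Bbc3 from 0.16 to 0.05.

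Of the effectors, Bax is the mostly cytosolic pore former and Bak1 the one resident at mitochondria. Bax gave 3.29, 3.61, 3.28 and 3.26 in wild-type pools and 3.14, 3.69, 3.18 and 3.22 in null pools. Pool 2 stood 0.33 above the mean of the other wild-type pools and 0.51 above that of the other null pools, and without the shift between arrays these steps were 0.06 and 0.24. The difference was -0.05 ± 0.14 (SE), with a fold interval of 0.77 to 1.21. Its 10 spots per array had an SD of 0.01 to 0.05, against a residual SD between scaled pools of 0.22.

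Bak1 gave 1.96, 2.01, 1.82 and 1.71 in wild-type pools and 1.70, 1.74, 1.63 and 1.71 in null pools. The groups overlap through wild-type pool 4, which nearly equalled its null partner, and the other 3 pairs were lower in null by 0.20 to 0.27. The difference was -0.18 ± 0.08 (SE), a fold of 0.88 with an interval of 0.77 to 1.01, and a limma adjusted p of 0.268. Its second probe, the coding one printed above, differed by 0.05 ± 0.16 (SE), so the 2 probes of Bak1 gave no common direction.

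The survival proteins hold the effectors and BH3-only proteins in check. Mcl1, a short-lived survival protein needed from the earliest embryo on, gave 3.98, 3.95, 4.10 and 4.04 in wild-type pools and 3.78, 3.69, 3.90 and 3.98 in null pools. All 4 pairs were lower in null, by 0.06 to 0.27, and the groups overlap through null pool 4. The difference was -0.18 ± 0.09 (SE), a fold of 0.88 with an interval of 0.77 to 1.01, and a limma adjusted p of 0.279. Its second probe differed by -0.21 ± 0.08 (SE), with groups that did not overlap and a limma adjusted p over all probes of 0.195.

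Bcl2l1 encodes Bcl-xL, on which embryonic neurons and erythroid precursors depend. It gave 0.28, 0.40, 0.24 and 0.22 in wild-type pools and 0.10, 0.20, 0.11 and 0.10 in null pools. Every null pool lay below every wild-type pool, as was so for 8.06% of genes. The difference was -0.16 ± 0.07 (SE), a fold of 0.90 with an interval of 0.80 to 1.004, and a limma adjusted p of 0.260. Its residual SD between pools, 0.07, lay at the 4.29th percentile of all genes tested. All 4 pairs were lower, by 0.12 to 0.20, as in 24.2% of genes, and the replicate block gave a limma adjusted p of 0.0844.

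Bcl2, the founding member of the family, gave 0.22, 0.22, 0.46 and 0.38 in wild-type pools and 0.26, 0.06, 0.51 and 0.32 in null pools. The groups overlap throughout, and within each group the pools of slide 2 were the higher ones. The difference was -0.03 ± 0.11 (SE), with a fold interval of 0.82 to 1.17.

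By role, 2 of 5 BH3-only genes had a higher mean in the null pools, with a median difference of -0.04. Neither of the 2 effectors and none of the 3 survival genes did, with medians of -0.12 and -0.16. Called genes were 1 BH3-only gene, 0 effectors and 0 survival genes, with 1 of the 10 members at an unadjusted limma p under 0.05, against 20.7% of all genes. These counts take the brightest probe of each gene. The plus-strand probe of Bad, the dimmest of Bcl2l11 and the second of Mcl1 had unadjusted limma p of 0.0122, 0.0058 and 0.0313. Within each pool, Pmaip1 relative to its binding partner Mcl1 can be read on one array, with the wild-type mean of this log2 difference set to 0. It was -0.34, 0.11, 0.05 and 0.18 in wild-type pools and 0.87, 0.91, 0.99 and 0.73 in null pools, so each null pool lay above each wild-type pool. Pmaip1 alone already separated the groups, so this separation is not a result about Mcl1. In the rest of the 6 such pairs of members the groups overlapped, and no share over other pairs of genes was computed. Bbc3 relative to Mcl1 was -0.11, 0.43, -0.21 and -0.11 in wild-type pools and 0.48, 1.04, 0.31 and 0.23 in null pools, which overlap through wild-type pool 2. The means of the other 4 in null pools, with wild type at 0, were -0.02 for Bax relative to Bcl2, 0.10 for Bax relative to Bcl2l1, -0.003 for Bak1 relative to Mcl1 and -0.02 for Bcl2l11 relative to Bcl2. The pairs were chosen with the members' values known, and no test was made of them.

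Of the members, 6 have more than 1 probe, and these read different stretches of their transcripts. Of the 19 probes, 5 had a higher and 14 a lower mean in null pools, and 1 was called over all probes, that of Pmaip1 (3.46% of all probes were called, 2.38% as higher). The groups did not overlap on 4 probes, against 15.7% of all probes. All 3 probes of Bcl2l1 and both of Mcl1 were lower on average, by 0.04 to 0.25.

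Probes of Bcl2l11 differed among themselves. Its dimmest probe, which lies upstream of the others and was above background in 3 of 4 pools of each group, gave -5.31, -5.44, -5.24 and -5.72 in wild-type pools and -5.03, -4.85, -5.14 and -4.71 in null pools. These groups did not overlap, and the difference was 0.50 ± 0.13 (SE) with a limma adjusted p over all probes of 0.0877. The exon-bridging probe printed above differed by -0.11 ± 0.07 (SE). In Bcl2, a dim probe about 172 kb upstream of the brightest differed by 0.41 ± 0.25 (SE), the widest error among the 19 probes, while its coding probe printed above differed by -0.06 ± 0.09.

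**Figure D3:**
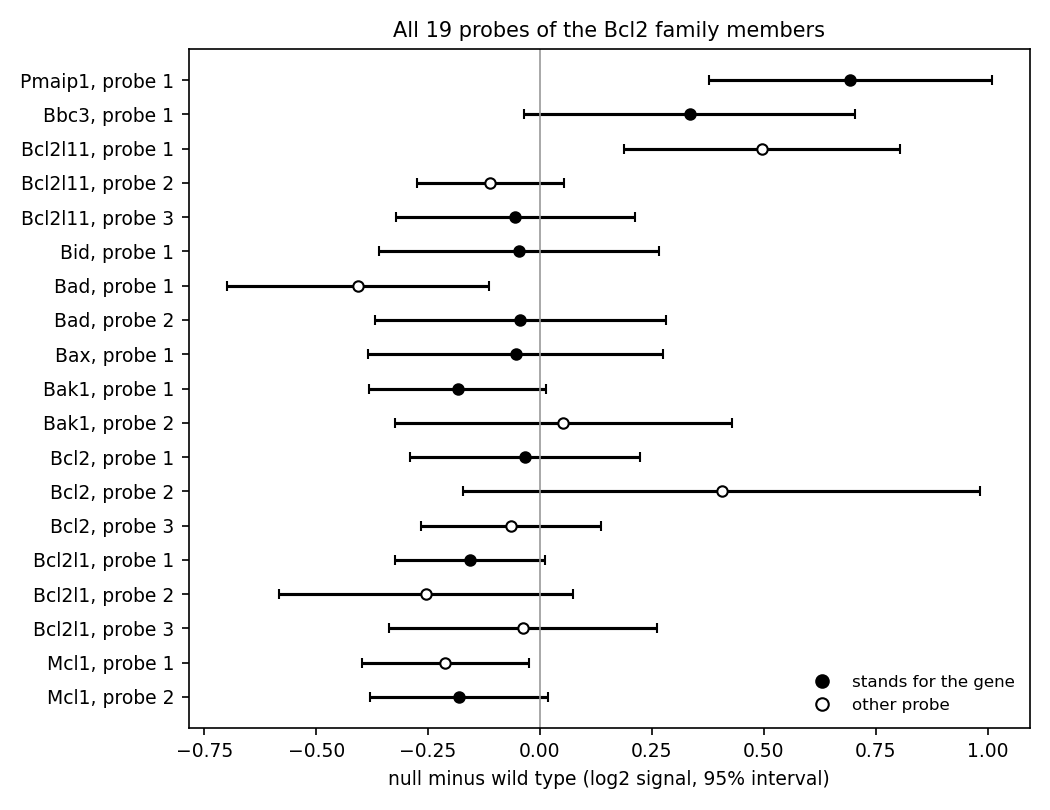
Null minus wild type (log2 signal, 95% interval) for all 19 probes in order of position within each gene; filled circles mark the brightest probe, which stands for the gene, and open circles the others. The probes of Mcl1 and Bcl2l1 lie on 1 side of 0, while those of Bcl2l11, Bak1 and Bcl2 lie on both.

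The pools numbered 2 stood apart for several members in both groups. In values relative to the 75th percentile, 5 members (Bbc3, Bad, Bax, Bak1 and Bcl2l1) were higher in pool 2 than in the other 3 pools of both groups, as were 23.5% of genes, and Bcl2l11 and Mcl1 were lower there in both, as were 19.6%. These places are those of the brightest probe of each gene. Both other Bcl2l1 probes also had pool 2 highest in both groups, but the other probes of Bad, Bak1, Bcl2l11 and Mcl1 did not keep the place. On the plus-strand Bad probe null pool 2 was at -4.07 and null pool 4 at -3.95. For Bbc3 the step above the mean of the other pools was 0.49 in wild type and 0.50 in null, and for Bad it was 0.40 and 0.41. Both pools 2 had the lowest 75th percentile of their group, so the shift between arrays raises them. Without that shift, a check of the step added after the data were seen, pool 2 was the highest in both groups for 2 members, Bbc3 (0.21 and 0.23) and Bad (0.13 and 0.14), and for 2.44% of genes. Bcl2l1 turned round, to -0.12 and -0.17, and so did Bak1, to -0.09 and -0.21. With quantile normalization 4 members, all but Bak1, kept pool 2 highest in both groups, as did 22.7% of genes. With a median shift all 5 had it highest in both groups, and so did 45.5% of genes. Xist was at -7.03 and -7.86 in the pools numbered 2, against 1.42 to 1.71 in the other wild-type pools, and null pool 4, with Xist at -7.56, did not show the step. The part of sex in the step was not tested.

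Without both pools numbered 2, a fit chosen after the data were seen, Pmaip1 differed by 0.75 with a limma adjusted p of 0.103. In the same fit Bbc3 differed by 0.33 ± 0.06 (SE), with a limma adjusted p of 0.0707. The genotype difference of Bbc3 was thus of the same size with and without the pools that stood apart. The limma fit of an interaction between genotype and slide called 0 of 10 members and 0.00585% of genes, with 0 members and 2.20% of genes at an unadjusted p under 0.05. Its standard errors for the members were 0.13 to 0.30, so it does not show that the differences were equal on both slides. Bid (0.02 and -0.12 on slides 1 and 2) and Bad (0.02 and -0.11) differed in sign between them.

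**Figure D4:**
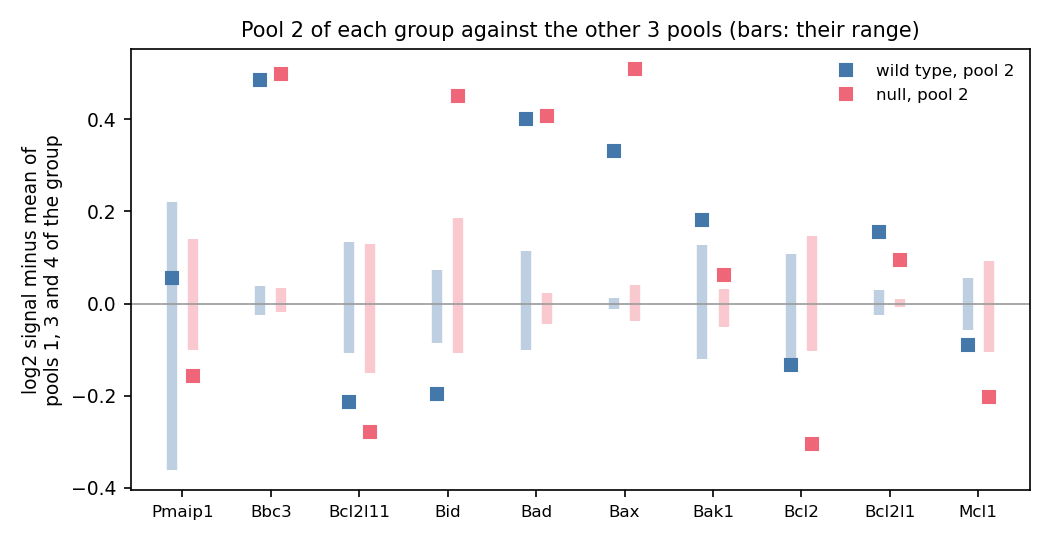
Log2 signal relative to the array's 75th percentile, of pool 2 minus the mean of pools 1, 3 and 4 of its group (squares; blue wild type, red null) for each member, with the range of those 3 pools as bars. Bbc3, Bad and Bax lie 0.33 to 0.51 above the others in both groups, outside the range of the other pools, on this scaling.

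Promoters were examined in 15 RefSeq windows of 9 members, all but Pmaip1, from 250 bases before to 50 after a start (build GRCm38.p6). The letters ACGTG, the core of the hypoxia response element and part of the CACGTG E-box, were found on either strand in 19.6% of all 32851 windows and in 2 of the 15 member windows, 1 of Bbc3 and 1 of Bax. The other members with a window have no match. The Bbc3 match lies at positions -63 to -59 from a start and the nearest Bax match at -8 to -4. Capitals mark it, and in both genes the base before it completes CACGTG, so that it reads the same on both strands.

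Bbc3, chr7:16310356-16310385, plus strand: cggggcgggcgcACGTGgcggcgtcgaggg

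Bax, chr7:45466899-45466928, minus strand: cctgcagcgagcgatgatgatcACGTGact

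A p53 half-site, searched on both strands, was found in 8.36% of all windows and in 1 member, Bax, at positions -201 to -192 from its start, where capitals mark it.

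Bax, chr7:45467082-45467111, minus strand: caagcatatcccAGGCAAGCTTtgaacttg

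The letters TGATGNAA, bound by ATF and CHOP proteins, were in 3.97% of windows and in 0 of the members' windows, and TATAAA was in 13.6% and in 0. The member windows were rich in G and C, with a median of 65.7% against 52.7% over all windows. These are matches of letters only, and they mark no site.

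The rest of the pathway was read from 6 lists of 70 genes tested, of which 4 rose and 0 fell, with a median difference of -0.01. Here too the background is 4.2% of all genes tested, with 2.85% called as higher and 1.35% as lower. Of 12 transcriptional regulators of the members, 1 rose and 0 fell. It was Ddit3 (CHOP), a factor of the endoplasmic reticulum and integrated stress responses, which rose from -2.45 ± 0.11 to -0.86 ± 0.30 (SD, n = 4 each), a difference of 1.59 ± 0.15 (SE) at a limma adjusted p of 0.00388. Trp53 itself differed by -0.18 ± 0.15 (SE) with a limma adjusted p of 0.582, and Atf4, which activates Pmaip1 and Ddit3 under stress, by 0.05 ± 0.11 with 0.857.

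Of 12 p53 targets outside the family, 2 rose and 0 fell. Sesn2, a stress-induced inhibitor of mTORC1 signalling that Atf4 also induces, rose by 0.93 ± 0.11 (SE) at a limma adjusted p of 0.00658. Polk, a translesion DNA polymerase, rose by 0.51 ± 0.09 with 0.0285. Cdkn1a, the cell cycle inhibitor p21 and a standard p53 readout, differed by 0.27 ± 0.15 with 0.374. In the death receptor arm, 1 of 8 genes measured rose, Tnfrsf10b, the mouse receptor for Trail, by 0.88 ± 0.20 (SE) at a limma adjusted p of 0.0474, which the replicate block moved to 0.0652. The ligands Fasl, Tnfsf10 and Tnf were above background on 0 arrays. Leaving out any 1 pool ended the call of Tnfrsf10b, and that of Polk stayed in 1 of 8 such fits, while Ddit3 and Sesn2 were called in 8 of 8. With normexp background correction none of the 4 was called by limma, at 1.003 for Ddit3, 0.92 for Sesn2, 0.20 for Polk and 0.27 for Tnfrsf10b, with adjusted p of 0.803, 0.445, 0.996 and 0.996. With the Y-linked covariate the limma adjusted p was 0.0687 for Ddit3, 0.0838 for Sesn2, 0.178 for Polk and 0.202 for Tnfrsf10b. Over all genes, normexp left 0 calls and the Y-linked covariate 9.

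The other 3 lists held no call. Of 12 further Bcl2 family genes, 6 were measured, with the smallest p for the BH3-only gene Bmf at 0.28 ± 0.07 (SE) and a limma adjusted p of 0.0674, while Hrk, Bcl2a1b and Bcl2l10 were above background on at most 1 array. Among 19 genes of the apoptosome and caspases the median was -0.09, and the smallest p was that of Dffb, the caspase-activated nuclease, at -0.36 ± 0.08 (SE) and 0.0509. Among 13 kinases, ligases and binding partners of the members it was that of Akt1, the kinase that phosphorylates Bad, at -0.23 ± 0.08 and 0.148. With the replicate block the 6 lists held 13 calls among 70 genes, 6 up and 7 down. It called Bmf, Fas, Trp63, Ddit3, Sesn2 and Polk as higher, and Cycs, Dffb, Fadd, Casp8, Ripk1, Aen and Akt1 as lower. That fit called 7.78% of all genes as higher and 5.92% as lower.

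**Figure D5:**
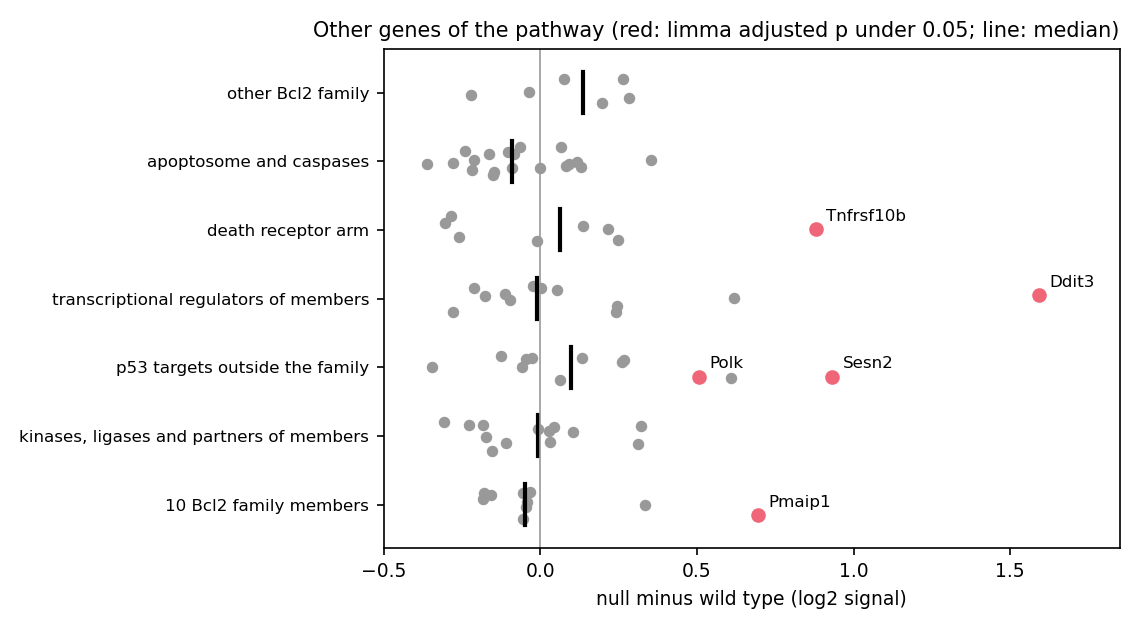
Null minus wild type (log2 signal) for each gene tested in 6 pathway lists and for the 10 members (bottom); red points have a limma adjusted p under 0.05 and are named, grey points do not, black lines are medians, and vertical jitter has no meaning. In red, 4 of 70 list genes and Pmaip1 lie to the right, and no gene to the left is red.

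Genes whose profile over the 8 arrays was most like that of Pmaip1 were Cbx7 (Pearson r = 0.97), a Polycomb chromobox protein, Mdga1 (0.97), a cell adhesion protein of neurons, Gpr160 (0.97), an orphan receptor, Primpol (0.96), a primase-polymerase of stalled replication forks, and Peli3 (0.96), a ubiquitin ligase of immune signalling, among 13829 genes compared. The arrays share the genotype difference and the pool numbers, so these values describe likeness only. Gpr160 and Primpol were themselves called, at 0.76 and 0.42 with limma adjusted p of 0.0158 and 0.0284. Cbx7, Mdga1 and Peli3 differed by 0.61, 0.24 and 0.45 and did not pass in the fit with genotype alone.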

How the data were processed

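The members and gene lists were chosen with earlier results of these data known. Per the file headers, the 8 one-colour Agilent arrays were read by Feature Extraction 9.5.3.1, and the deposited processed intensity of each spot is background-subtracted and detrended within the array, with nothing scaled between arrays. The deposited mean spot and local background intensities served only the normexp alternative (offset 50). The deposited value table holds log2 values of 27108 probes, all matched by name, with column medians of 9.44 to 9.47. Each column correlated with the log2 signal at 0.988 or more. No source used here says how that table was scaled.

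Control spots (1639 of 45018) and outlier spots (87 to 175 per array) were left out, spots of a probe averaged on the log2 scale and the array's 75th percentile subtracted. A probe was kept (25559 of 41174) if at least 4 of 8 arrays read it well above background, with at least 0.5 of its spots, the brightest stood for its gene, and 2 values per group were required. A RefSeq table named 22951 probes through accessions, 6659 through symbols and 3109 through older names, and 8455 kept the file's name. Groups were compared with limma 3.58.1 (R 4.3.3) with genotype as the only term, with Benjamini-Hochberg adjustment over all genes or all kept probes. Alternatives were other background corrections, scalings, filters, blocks, left-out pools and the deposited table.

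Same-numbered pools' deviations correlated at 0.557, 0.635, 0.522 and 0.426 over genes for pools 1 to 4, and the numbers were treated as pairs. Wild-type pool 4 correlated slightly better with null pool 3 (0.496). Named genes are the 10 members, Arid3b, up to 4 called genes per list or the one with the smallest p, and the 5 genes most like each called member. Trp53, Atf4, Cdkn1a, the genes called with the block and Xist were added after their values were seen. The fit was tested on simulated data of 17102 genes, with 50 changed 1.5-fold, 100 changed 2-fold and 50 changed 4-fold. It recovered 46%, 67% and 92% of these, with 10 of 146 calls false. Arrays were simulated as independent, without the deviations that same-numbered pools share, so these rates need not hold for these data. With 4 arrays per group, array number limits the precision.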

Additional observations from a re-analysis of the deposited data

Results flagged for a closer look

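Of 20 sets of 4 pools (10 members in 2 groups), 6 held a pool whose gap to its nearest neighbour took more of the group's range than Dixon's 95% limit allows. Chance flags about 1 in 20 groups and 5.60% of such sets were past the limit over all genes, but the 20 sets share 8 pools and are not independent. All 6 were pools numbered 2, on values of the brightest probe of each gene relative to the 75th percentile. Bbc3 was at 2.88 in wild-type pool 2 and 3.22 in null pool 2. Bax was at 3.61 in wild-type pool 2 and 3.69 in null pool 2. Bad was at -1.57 and Bcl2l1 at 0.20 in null pool 2. With no shift between arrays 2 of the 20 sets were past the limit, against 5.52% over all genes, and Bcl2l1 was then lowest in null pool 2. What set these pools apart was not tested.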

How the results depend on the processing

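Pmaip1 and Bbc3 were higher, and Bak1, Bcl2l1 and Mcl1 lower, in the null pools in all 26 alternatives run for each; Bcl2l11, Bid, Bad, Bax and Bcl2 changed sign in some and were called in none. Pmaip1 was called in 6 of the 26 and Bbc3 in 1. Against 1 member, 1 member probe, 4 list genes and 718 genes called, limma called 0, 0, 0 and 0 with normexp (the smallest adjusted p of Pmaip1 over the alternatives was 0.0161 and the largest 0.996), 0, 0, 2 and 204 with a median shift, 0, 0, 2 and 157 with no shift, 0, 0, 2 and 164 with no filter, 0, 0, 0 and 9 with the Y-linked covariate, 0, 0, 0 and 0 within slide 1 and the same within slide 2, and 0, 0, 2 and 193 without the pools numbered 2. Slide as a block gave 7 list genes and 1370 genes, the replicate block 2 members, 2 member probes, 13 list genes and 2343 genes. The deposited table gave 0 members, 2 list genes and 308 genes. Leaving out 1 pool gave 0 to 0 members and member probes, 2 to 3 list genes and 93 to 628 genes. The median of all genes shifted to -0.10 with the median shift, -0.08 with no shift and -0.07 with normexp. Within 1 slide, 2 pools per group remain. The replicate block changed no other member's call. Causes of these changes were not tested.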
